A study of Homo sapiens with 27 samples.

Results

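The BCL2 family is described here through 10 genes that decide whether mitochondria release cytochrome c and a cell dies by apoptosis. They were chosen by name: the survival genes BCL2, BCL2L1, BCL2L2 and MCL1, the pore-forming effectors BAX and BAK1, and the BH3-only death genes BID, BBC3, PMAIP1 and BCL2L11. They are 10 of the 60534 gene IDs that all libraries share. All 10 passed the filter on low counts in both assays, where 13201 genes were tested by RNA-seq and 11689 by ribosome profiling.

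IMR90, a line of human fetal lung fibroblasts, was studied in 5 states. Cycling cells were proliferating and quiescent cells were held by contact inhibition. Irradiated cells had received 15 Gy and were senescent 10 days later. Etoposide, a topoisomerase II poison, made the other senescent state, with 3 treatments at 50 µM and harvest at 10 days. The fifth state was cycling cells given 25 nM thapsigargin for 3 h, which blocks the calcium pump of the endoplasmic reticulum. All states use this 1 line, and no label says that libraries of a state came from separate cultures, so p-values measure the spread between these libraries. RNA-seq (13 libraries) counts mRNA fragments, and ribosome profiling (Ribo-seq, 14 libraries) counts the mRNA fragments shielded by ribosomes, called footprints. There were 3 libraries of each kind per state, except 2 of cycling RNA-seq and 2 of each kind for thapsigargin.

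In the resting cell the survival proteins bind and hold both BAX and BAK and the BH3-only proteins. When BH3-only proteins rise they occupy the survival proteins or activate BAX and BAK directly, and these open the outer mitochondrial membrane. Partnerships are selective: NOXA, the product of PMAIP1, binds MCL1, while BIM, the product of BCL2L11, binds all the survival proteins. Senescent fibroblasts are known for resisting apoptosis, and inhibitors of BCL2, BCL-XL and BCL-W are used experimentally to kill them.

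Total gene counts (in units of 1e6 counts) ran from 20.6 to 57.1 in RNA-seq and from 1.94 to 20.0 in Ribo-seq, with the thapsigargin footprint libraries the shallowest at 1.94 and 2.04. The thapsigargin libraries stand apart. Unmapped reads were 1.35% and 1.40% of their RNA-seq, against 27.8% to 40.6% in the other RNA-seq libraries, and reads with several matches were 65.2% and 66.9% of their Ribo-seq, against 19.8% to 31.9%. Their footprints were counted on a list of 62703 gene IDs, and those of the other states on 60664, so each thapsigargin comparison of footprints crosses the lists. The labels give their medium without antibiotics. These differences cannot be told apart from the drug in a thapsigargin comparison. One label calls all 4 of them ribosome-protected, and only their titles split RNA-seq from Ribo-seq, so every thapsigargin value rests on the titles. Counts on the opposite strand were 7.14% and 5.41% in the 2 titled RNA-seq, against 5.69% to 10.7% in other RNA-seq libraries, so 1 lay just below that range. They were 4.09% and 4% in the 2 titled Ribo-seq, against 3.56% to 4.22% in the others. Comparisons among the other states were run with and without the thapsigargin libraries in the fit. The 8 fibroblast markers summed to 8174 to 13200 CPM in RNA-seq, with none at 0, while 5 epithelial markers summed to at most 1.26 CPM. In footprints the fibroblast sum was 11720 to 12080 CPM under thapsigargin and 17940 to 36280 CPM elsewhere. The sum of 5 endothelial markers in RNA-seq was 52.8 to 83.1 CPM in etoposide and 31.2 to 34.2 CPM in irradiated libraries. None was at 0 in either state. The sum was 4.58 to 26.5 CPM in the other states, and CDH5 and PECAM1 were at 0 in cycling cells. The 5 leukocyte markers summed in RNA-seq to 1.26 to 1.59 CPM after etoposide and at most 0.288 CPM elsewhere. In footprints their sum was 1.91 to 3.44 CPM after etoposide and at most 1.11 CPM elsewhere. The part of these markers in the results was not tested.

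Levels are given in CPM, counts scaled to the library's total with TMM factors, which is not divided by gene length and so is compared between states of one gene and not between genes. The call for a gene was an adjusted p under 0.05 in edgeR's quasi-likelihood test, with Benjamini-Hochberg adjustment over all genes tested. Log2 fold changes are given ± SE, and a value of 1 is a doubling. The comparisons with cycling cells share the cycling libraries. Where 1 of 2 libraries of a state is left out, the remaining library is assumed to vary like the other groups, since the fit takes its spread from them. Values come from bulk cultures, where fewer expressing cells and less RNA per cell cannot be told apart.

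The family moved unevenly. In RNA-seq, quiescent cells changed 1 of the 10 genes against cycling cells, in a test that called 15.6% of all genes. Irradiated cells changed 4, all higher, with 35% called, and etoposide cells changed 3, all higher, with 34.6% called. Thapsigargin changed 5, of which 3 rose and 2 fell, with 24.6% of all genes called. The mean of both senescent states differed from quiescence in 5 genes, 2 higher and 3 lower, with 34.3% called. Irradiated and etoposide cells differed in 3 genes, all higher after irradiation, with 22.6% called. The median of the 10 log2 changes lay between 0.11 and 0.37 in these comparisons, against -0.03 to 0.06 over all genes. Shares of the family called ran from 10% to 50%, on both sides of the background.

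Footprints gave a similar count with partly other genes. Quiescence changed 1 of the 10, with 22.6% of all genes called, and irradiation changed 3, all higher, with 40.1% called. Etoposide changed 5, of which 3 rose and 2 fell, with 33.7% called, and thapsigargin changed 5, again 3 up and 2 down, with 44.3% called. The senescent mean differed from quiescence in 4 genes, 2 in each direction, with 26.5% called, and irradiated differed from etoposide cells in 4, 3 of them higher, with 21.1% called. Genes called in both assays numbered 0 in quiescence, 1 after irradiation, 2 after etoposide and 3 under thapsigargin. Each of these moved the same way in both. The share of all genes called in both assays was not computed, so these numbers have no background to be read against. The median footprint change of all genes under thapsigargin was -0.15, and values are given without subtracting it.

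**Figure D1:**
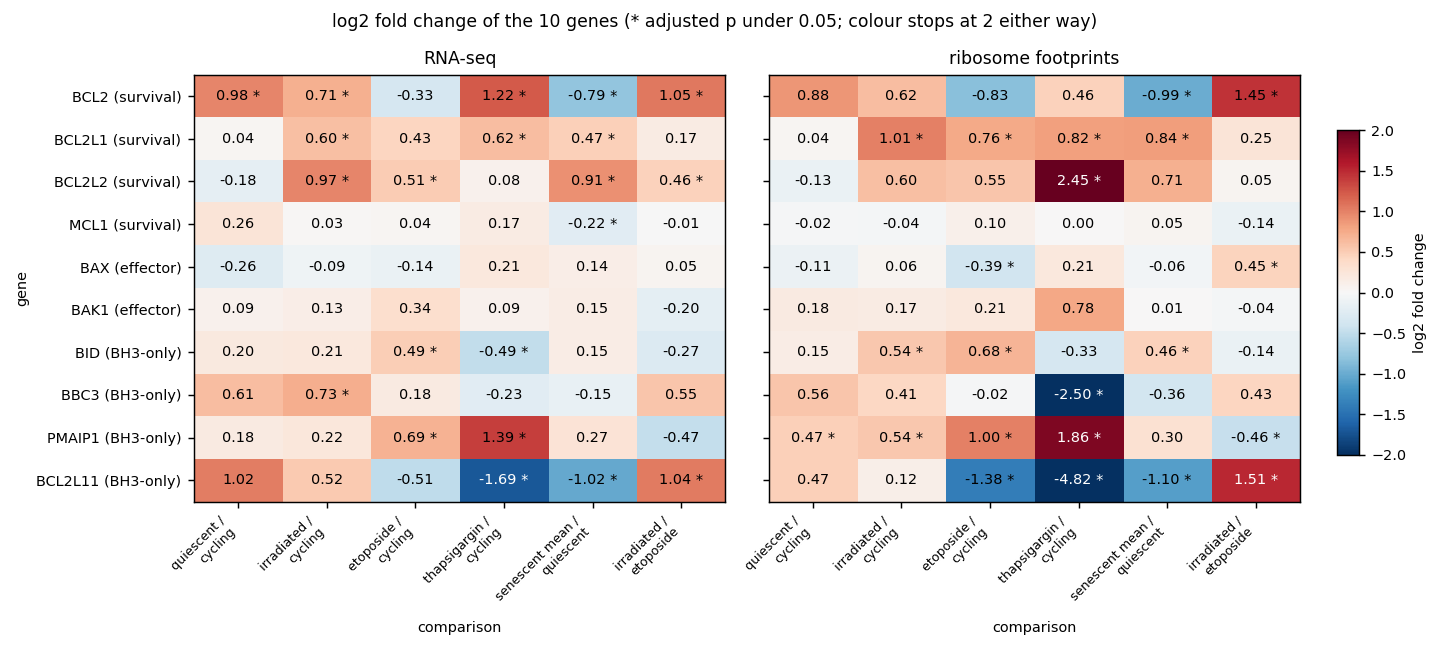
Log2 fold change of each of the 10 genes (rows, with role) in 6 comparisons (columns) for RNA-seq on the left and footprints on the right. Asterisks mark an adjusted p under 0.05 and colours stop at 2 in either direction. MCL1 stays near 0 throughout, PMAIP1 reaches 1.86 in thapsigargin footprints, and the -4.82 of BCL2L11 there rests on 1 footprint.

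Among the survival genes, BCL2 separated the states most cleanly. BCL2 (chr18:63123346-63320090, GRCh38.p14) encodes the founding inhibitor of apoptosis, which sits on mitochondria and on the endoplasmic reticulum. Its RNA level was 7.30 and 6.93 CPM in cycling cells, 15.8, 12.03 and 14.3 CPM in quiescent cells, 11.8, 11.5 and 11.8 CPM in irradiated cells, 5.83, 5.25 and 5.86 CPM in etoposide cells, and 16.5 and 16.6 CPM under thapsigargin. Ordered by mean, thapsigargin was highest, then quiescent, irradiated, cycling and etoposide cells, and no neighbouring states in that order overlapped. BCL2 RNA rose by 0.98 ± 0.15 in quiescence (adjusted p = 0.00132), by 0.71 ± 0.15 after irradiation (adjusted p = 0.00259) and by 1.22 ± 0.16 under thapsigargin (adjusted p = 0.000166). The etoposide value, -0.33 ± 0.15, did not pass (adjusted p = 0.104).

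BCL2 footprints ran in the same order except for thapsigargin. They were 4.38, 3.84 and 3.75 CPM in cycling, 7.84, 7.09 and 7.11 CPM in quiescent, 5.88, 7.003 and 5.64 CPM in irradiated and 2.60, 1.72 and 2.41 CPM in etoposide cells. All quiescent and irradiated libraries lay above the cycling ones and all etoposide libraries below. Against cycling cells none of these passed in the fit over all states, with 0.88 ± 0.31 in quiescence (adjusted p = 0.0566), 0.62 ± 0.35 after irradiation (adjusted p = 0.183) and -0.83 ± 0.38 after etoposide (adjusted p = 0.105). With the thapsigargin libraries left out of the fit all 3 passed, at adjusted p = 0.00234, 0.022 and 0.00765. The thapsigargin libraries themselves read 1.52 and 9.38 CPM, from 3 and 19 footprints, so that state is not resolved: the change was 0.46 ± 0.46, -1.38 without replicate 2 and 1.23 without replicate 1, the last passing at adjusted p = 0.00828.

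BCL2 also set the mean of the senescent states apart from quiescence, and the senescent states apart from each other. Against quiescent cells the senescent mean fell by 0.79 in RNA (SE 0.11, adjusted p = 0.000146) and by 0.99 in footprints (SE 0.28, adjusted p = 0.0185). The footprint call was lost without etoposide replicate 2 (adjusted p = 0.0537). Neither senescent state was tested alone against quiescence. In RNA the changes from cycling cells were 0.98 for quiescent, 0.71 for irradiated and -0.33 for etoposide cells. In footprints they were 0.88, 0.62 and -0.83. Irradiated cells thus lay nearer to quiescent cells than etoposide cells did in both assays. Irradiated cells held more BCL2 than etoposide cells, by 1.05 ± 0.13 in RNA (adjusted p = 0.00024) and 1.45 ± 0.40 in footprints (adjusted p = 0.0172). The footprint difference rests on 73 and 40 footprints in all and was lost without irradiated replicate 1 or etoposide replicate 2 (adjusted p = 0.0542 and 0.0717).

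**Figure D2:**
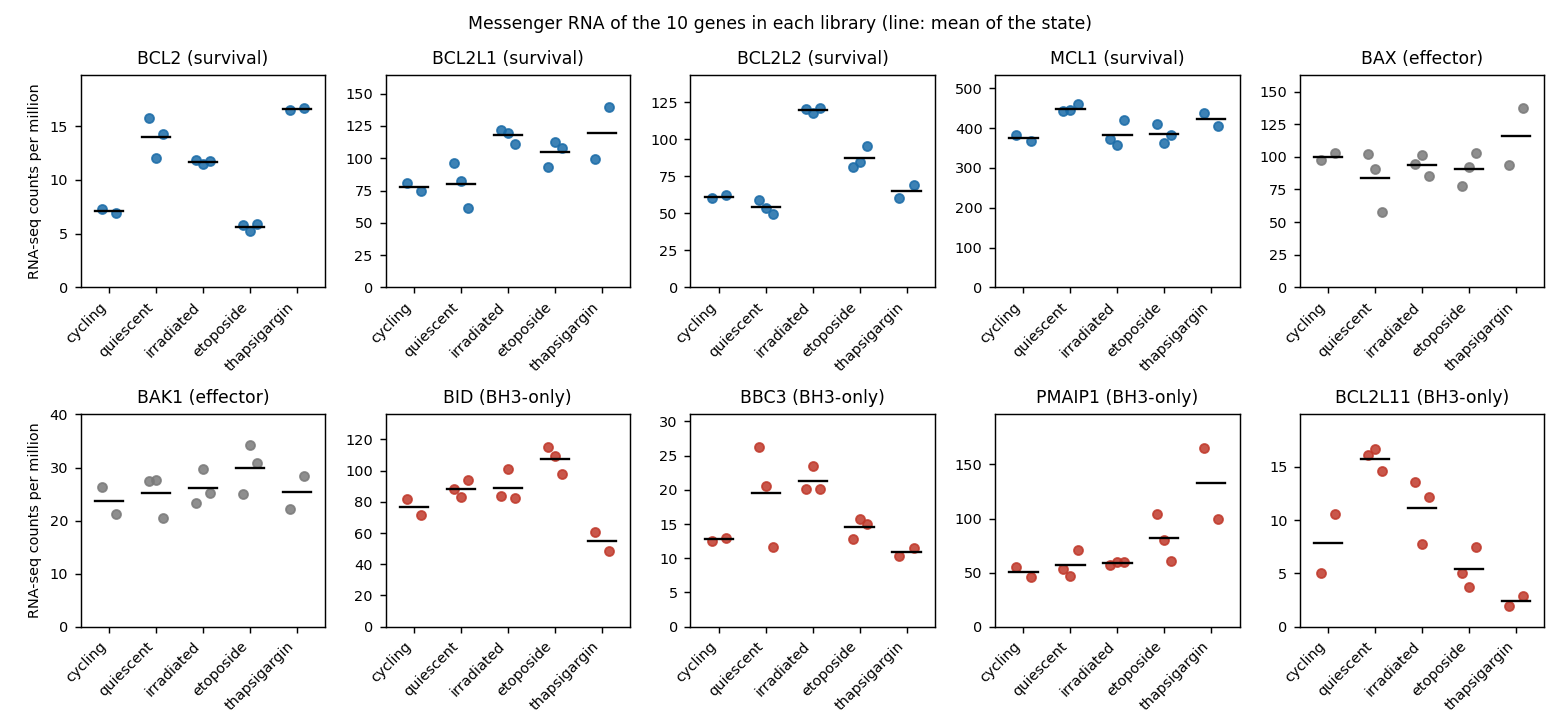
RNA-seq CPM of each gene (vertical axis, from 0) in each library, grouped by state, with points for libraries and a line for the mean of a state. Blue marks survival genes, grey effectors and red BH3-only genes. The 5 states of BCL2 do not overlap in order of mean, BCL2L2 is highest in irradiated cells at 118 to 122 CPM, and BCL2L11 is lowest under thapsigargin.

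BCL2L1, which encodes BCL-XL, the survival protein that holds BAX and BAK in many epithelial and stromal cells, gained footprints in both senescent states and under thapsigargin. The gene lies at chr20:31664452-31723963. Its footprints were 79.4, 76.7 and 82.6 CPM in cycling and 94.9, 78.3 and 71.8 CPM in quiescent cells. They were 172, 167 and 139.6 CPM in irradiated, 149.9, 139 and 115 CPM in etoposide and 156 and 124 CPM in thapsigargin cells. Every library of these last 3 states lay above every cycling and quiescent library. Footprints rose by 1.01 ± 0.14 after irradiation (adjusted p = 6.1e-05), 0.76 ± 0.14 after etoposide (adjusted p = 0.000687) and 0.82 ± 0.16 under thapsigargin (adjusted p = 0.000953). The quiescent value was 0.04 ± 0.14, and the senescent mean exceeded quiescence by 0.84 ± 0.12 (adjusted p = 0.000162).

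BCL2L1 RNA moved less. It was 80.7 and 74.6 CPM in cycling, 96.5, 82.3 and 61.4 CPM in quiescent, 122, 119.9 and 111 CPM in irradiated, 93.4, 113 and 108 CPM in etoposide and 99.2 and 139 CPM in thapsigargin cells. Neighbouring states overlapped throughout the order of means, although irradiated libraries all exceeded the cycling ones. The rise was 0.60 ± 0.18 after irradiation (adjusted p = 0.0206) and 0.62 ± 0.20 under thapsigargin (adjusted p = 0.0349), with 0.43 ± 0.18 after etoposide (adjusted p = 0.0825, or 0.0144 with only those states in the fit). The irradiation call was lost without either cycling library or irradiated replicate 1 or 2 (adjusted p = 0.0542 to 0.130), and the thapsigargin call without either cycling library or thapsigargin replicate 2, where the change was 0.35 (adjusted p = 0.107 to 0.257), and with only those states in the fit (adjusted p = 0.084). The senescent mean exceeded quiescence by 0.47 ± 0.14 (adjusted p = 0.02), and by 0.31 without quiescent replicate 3 (adjusted p = 0.0878).

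The strand matters for BCL2L1. The antisense gene BCL2L1-AS1 overlaps 70.1% of its span, and LOC124904883 overlaps 5.28%. A count that ignores strand drops reads that fall on more than 1 gene, and which overlap took the reads was not tested. The counts used here are those of the sense strand, where BCL2L1-AS1 had 0 footprints in every library. Counted without strand, BCL2L1 kept 25.3% of its cycling and 9.14% of its thapsigargin footprints, and the thapsigargin change turned to -0.59 (adjusted p = 0.0551). The etoposide footprint change was then 0.20 (adjusted p = 0.399) and the irradiation change 0.66 (adjusted p = 0.00758).

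BCL2L2 (chr14:23306833-23311751) encodes BCL-W, a survival protein of the same class. Its RNA rose in both senescent states and most after irradiation. The libraries read 60.7 and 62.1 CPM in cycling, 59.2, 53.9 and 49.8 CPM in quiescent, 121, 118 and 122 CPM in irradiated, 81.2, 84.9 and 95.4 CPM in etoposide and 60.7 and 69.1 CPM in thapsigargin cells. Irradiated, etoposide and all remaining libraries form 3 ranges that do not overlap. RNA rose by 0.97 ± 0.12 after irradiation (adjusted p = 3.3e-05) and 0.51 ± 0.12 after etoposide (adjusted p = 0.00418), and irradiated exceeded etoposide cells by 0.46 ± 0.10 (adjusted p = 0.00541). Against quiescence the senescent mean was 0.91 ± 0.09 higher (adjusted p = 7.7e-06).

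Footprints on BCL2L2 were scarce, 374 in all libraries together against 34260 RNA counts. They read 1.49, 2.02 and 3.85 CPM in cycling, 1.62, 1.99 and 3.02 CPM in quiescent, 3.81, 2.21 and 4.79 CPM in irradiated, 2.95, 2.97 and 4.83 CPM in etoposide and 18.3 and 8.39 CPM in thapsigargin cells. Thapsigargin libraries lay above all others, a rise of 2.45 ± 0.48 (adjusted p = 0.00102) that rests on 53 footprints against 81 in cycling cells. The senescent and cycling ranges overlapped, at 0.60 ± 0.46 and 0.55 ± 0.43 (adjusted p = 0.324 and 0.353). The whole span of BCL2L2 lies inside the read-through gene BCL2L2-PABPN1, and reads on exons of both are left out of the counts. The thapsigargin footprints were counted on another gene list than the cycling ones, with 0 footprints on BCL2L2-PABPN1 against 29 in cycling cells, and the part of this in the rise was not tested.

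MCL1 (chr1:150574558-150579610) encodes a short-lived survival protein whose level is set largely by its turnover. It was the flattest of the 10 genes. Its RNA was 382 and 368 CPM in cycling, 442, 444 and 459.9 CPM in quiescent, 372, 358 and 419.5 CPM in irradiated, 412, 363 and 382 CPM in etoposide and 438 and 406 CPM in thapsigargin cells. Its footprints were 312, 318 and 277 CPM in cycling, 328, 294 and 276 CPM in quiescent, 302, 282 and 301 CPM in irradiated, 347, 318 and 310.2 CPM in etoposide and 291 and 314 CPM in thapsigargin cells. The highest state mean exceeded the lowest by 1.20 times in RNA and 1.10 times in footprints, and in footprints all neighbouring states overlapped. The only call was an RNA decrease in the senescent mean against quiescence, -0.22 ± 0.08 (adjusted p = 0.0473), which was lost on leaving out any of 7 of the 9 libraries (adjusted p = 0.0714 to 0.11), all but irradiated replicate 3 and etoposide replicate 1. It was also lost with DESeq2's size factors (adjusted p = 0.0602), with no filter (adjusted p = 0.0748) and with both strands counted (adjusted p = 0.0522). Under thapsigargin the footprint change was 0.00 ± 0.11.

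The effectors changed little. BAX (chr19:48954875-48961798) and BAK1 (chr6:33572552-33580276) encode the proteins that form the mitochondrial pore. BAX RNA was 97.4 and 103 CPM in cycling and ranged from 58.0 to 138 CPM in the other states, with all neighbouring states overlapping and no comparison passing. BAX footprints were 253, 254 and 308 CPM in cycling, 254, 242 and 259 CPM in quiescent, 290.0, 247 and 311 CPM in irradiated, 209, 208 and 203 CPM in etoposide and 326 and 303 CPM in thapsigargin cells. The etoposide libraries lay below all others. Against cycling cells they fell by 0.39 on the log2 scale (SE 0.10, adjusted p = 0.00894), and irradiated exceeded etoposide cells by 0.45 ± 0.10 (adjusted p = 0.00632). The thapsigargin value, 0.21 ± 0.12, did not pass (adjusted p = 0.157) except without cycling replicate 3 (0.38, adjusted p = 0.0202) or with both strands counted (0.30, adjusted p = 0.0497).

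BAK1 passed in none of the edgeR comparisons of the fit over all states, where its lowest unadjusted p was 0.037. Its RNA ran from 20.4 to 34.2 CPM and its footprints from 6.18 to 10.3 CPM outside thapsigargin, where they were 8.13 and 15.3 CPM. Neighbouring states overlapped throughout. The thapsigargin footprint change was 0.78 ± 0.34 (adjusted p = 0.0751), and it passed without thapsigargin replicate 1 (1.16, adjusted p = 0.0224) or cycling replicate 3 (0.99, adjusted p = 0.0491) and in DESeq2 (0.82, adjusted p = 0.038). It rests on 47 footprints in 2 libraries.

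**Figure D3:**
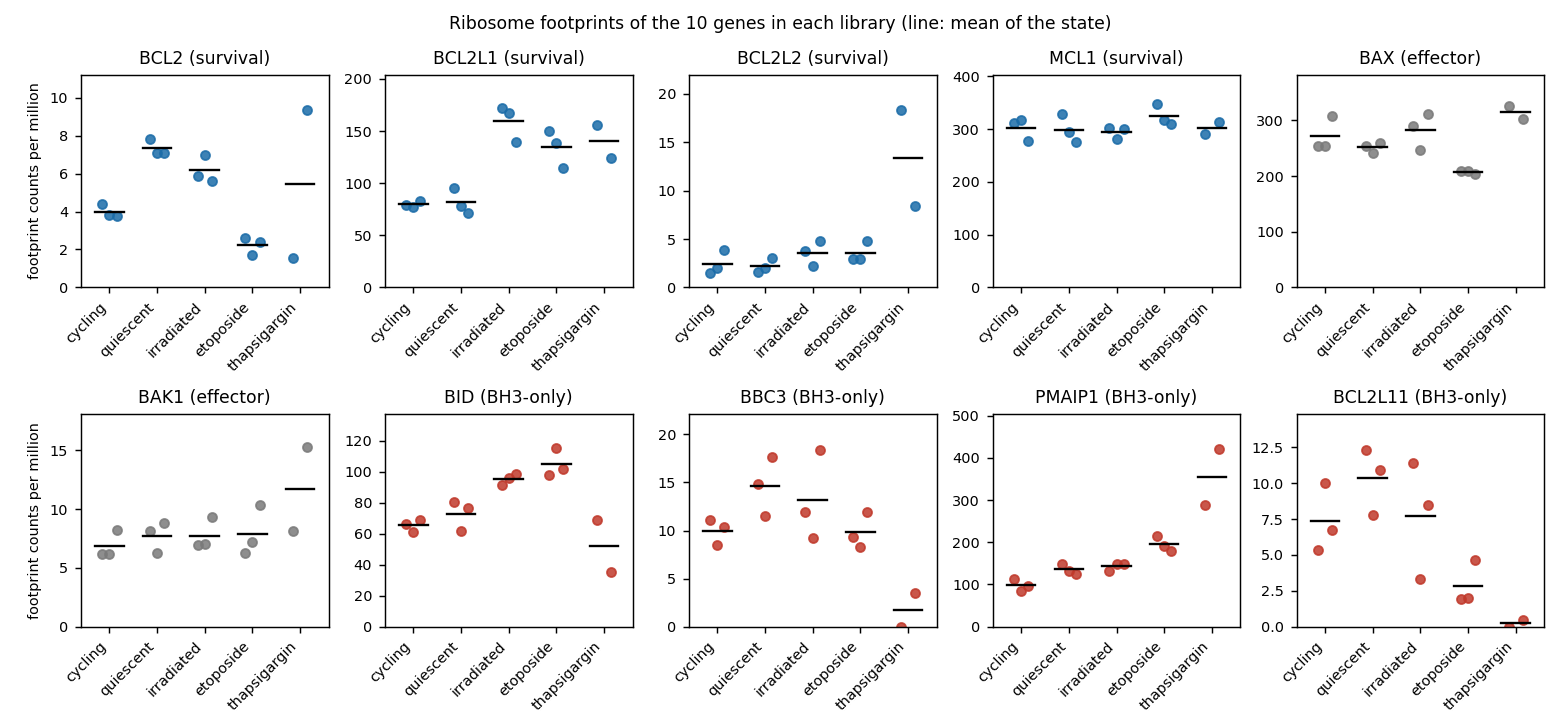
Footprint CPM of each gene (vertical axis, from 0) in each Ribo-seq library, grouped by state, with points for libraries and a line for the mean of a state. Blue marks survival genes, grey effectors and red BH3-only genes. BCL2L1 is at 115 CPM or more in irradiated, etoposide and thapsigargin libraries and at 94.9 CPM or less in cycling and quiescent ones, and the thapsigargin libraries are highest for PMAIP1 and lowest for BBC3 and BCL2L11.

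The regions before the start sites of PMAIP1 and BCL2L11 are shown because, of the BH3-only genes, the former rose and the latter fell under thapsigargin in both assays. RefSeq windows (GRCh38.p14) matched 8 of the 10 genes, in 13 windows, and MCL1 and BCL2L2 had none. Each sequence is the 250 bases before the start site on the plus strand, at chr18:59899746-59899995 for PMAIP1 and chr2:111120664-111120913 for BCL2L11. Capitals mark matches to the 7 short motifs searched on both strands.
PMAIP1: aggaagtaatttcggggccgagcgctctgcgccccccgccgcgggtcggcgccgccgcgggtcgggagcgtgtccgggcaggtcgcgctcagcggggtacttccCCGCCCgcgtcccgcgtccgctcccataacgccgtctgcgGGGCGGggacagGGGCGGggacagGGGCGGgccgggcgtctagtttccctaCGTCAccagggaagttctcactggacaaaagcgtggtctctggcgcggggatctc
BCL2L11: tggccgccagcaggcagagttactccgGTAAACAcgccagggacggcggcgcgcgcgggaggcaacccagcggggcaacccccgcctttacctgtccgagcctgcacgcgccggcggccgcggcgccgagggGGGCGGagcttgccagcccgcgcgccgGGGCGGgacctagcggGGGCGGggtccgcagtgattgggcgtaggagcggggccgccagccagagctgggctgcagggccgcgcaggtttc

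In the PMAIP1 window the capitals are 4 GC boxes (GGGCGG or its complement), the first 146 and the last 82 bases before the start, and TGACG, the core of a cyclic AMP response element, read on the complement 55 bases before the start. The full element TGACGTCA was in no window of these genes and in 1.65% of all 35116 windows, while TGACG was in 21.2% of them and in windows of PMAIP1, BCL2, BCL2L1 and BAX. In the BCL2L11 window the capitals are the forkhead motif TGTTTAC on the complement, 223 bases before the start, and 3 GC boxes. The forkhead motif was in 2.98% of all windows and in none of the other windows of these genes, and the GC box was in 42.6% of all windows and in those of PMAIP1, BCL2L11, BAX, BAK1 and BID. The composite element TGATGNAA (3.14% of all windows) matched none of these genes. CACGTG (6.34%) matched BAX, BBC3 and BID, and TATAAA (10.7%) matched BCL2L1. A match is a description of letters and not a site.

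PMAIP1 footprints rose in all 4 comparisons with cycling cells, the only gene of the 10 to do so in either assay. The gene (chr18:59899996-59904305) encodes NOXA, a small BH3-only protein that neutralises MCL1 and is a known target of p53 and of the stress factor ATF4. Footprints were 113, 84.2 and 97.0 CPM in cycling, 149, 133 and 126 CPM in quiescent, 131, 148 and 149 CPM in irradiated, 215, 192 and 179.9 CPM in etoposide and 289 and 422 CPM in thapsigargin cells. Only the quiescent and irradiated ranges overlapped, and every arrested or stressed library exceeded every cycling one. Footprints rose by 0.47 ± 0.14 in quiescence (adjusted p = 0.0286), 0.54 ± 0.15 after irradiation (adjusted p = 0.00845), 1.00 ± 0.14 after etoposide (adjusted p = 9.5e-05) and 1.86 ± 0.16 under thapsigargin (adjusted p = 1.2e-06). The quiescent call was lost without cycling replicate 2 or 3 or quiescent replicate 1 or 2 (adjusted p = 0.0561 to 0.125) and with only those states in the fit (adjusted p = 0.0513).

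PMAIP1 RNA followed in part. It was 55.1 and 45.9 CPM in cycling, 53.5, 47.3 and 71.3 CPM in quiescent, 57.1, 60.1 and 59.6 CPM in irradiated, 104, 79.8 and 60.6 CPM in etoposide and 165 and 100.0 CPM in thapsigargin cells. Irradiated, etoposide and thapsigargin libraries all exceeded both cycling libraries, and the etoposide and thapsigargin ranges overlapped. RNA rose by 1.39 ± 0.27 under thapsigargin (adjusted p = 0.00237) and by 0.69 ± 0.25 after etoposide (adjusted p = 0.0432). The etoposide call was lost without either cycling library or etoposide replicate 1 or 2 (adjusted p = 0.0797 to 0.238) and with no filter (adjusted p = 0.0506). Irradiated cells had fewer footprints than etoposide cells, with a log2 difference of -0.46 ± 0.15 (adjusted p = 0.0362), a call lost without any 1 of the 6 libraries (adjusted p = 0.061 to 0.177), with no filter (adjusted p = 0.0779) and with both strands counted (adjusted p = 0.0513).

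Since NOXA binds MCL1, their counts were set against each other within libraries. The ratio of MCL1 to PMAIP1 footprints averaged 3.13 in cycling, 2.21 in quiescent, 2.08 in irradiated, 1.66 in etoposide and 0.876 in thapsigargin cells. Its range was 2.77 to 3.77 in cycling and 0.746 to 1.01 under thapsigargin, with no overlap. The ratio carries the lengths of both genes, so only its change between states is read. The ratio of BCL2L1 to BAX footprints averaged 0.295 in cycling, 0.325 in quiescent, 0.573 in irradiated, 0.649 in etoposide and 0.444 in thapsigargin cells. All senescent and thapsigargin libraries exceeded every cycling and quiescent library, with the lowest at 0.41 and the highest cycling or quiescent value at 0.374. The RNA ratio of BCL2L1 to BAX did not separate the states in this way: the quiescent range, 0.908 to 1.06, overlapped the etoposide range from 1.045 and the thapsigargin range from 1.01. For MCL1 to PMAIP1 in RNA the mean was 7.49 in cycling, 8.04 in quiescent, 6.51 in irradiated, 4.925 in etoposide and 3.36 in thapsigargin cells.

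BCL2L11 fell where PMAIP1 rose under thapsigargin, in both assays, and in footprints after etoposide. The gene (chr2:111120914-111168445) encodes BIM, a broad BH3-only activator that forkhead FOXO factors are known to induce when growth signals stop. Its RNA was 5.08 and 10.6 CPM in cycling, 16.1, 16.6 and 14.6 CPM in quiescent, 13.5, 7.75 and 12.2 CPM in irradiated, 5.03, 3.75 and 7.50 CPM in etoposide and 1.91 and 2.86 CPM in thapsigargin cells. Quiescent libraries lay above and thapsigargin libraries below all others. The cycling range overlapped the irradiated and etoposide ranges, whose changes were 0.52 ± 0.34 and -0.51 ± 0.34 (adjusted p = 0.259 and 0.265). RNA fell by 1.69 under thapsigargin (SE 0.39, adjusted p = 0.00687), or by 1.08 without cycling replicate 2, where the call was lost (adjusted p = 0.105). The quiescent value, 1.02 ± 0.35, did not pass in edgeR (adjusted p = 0.0625), and passed in DESeq2 (adjusted p = 0.0187) and without cycling replicate 2 (1.63, adjusted p = 0.0372).

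BCL2L11 footprints were 5.38, 10.1 and 6.77 CPM in cycling, 12.3, 7.81 and 10.9 CPM in quiescent, 11.4, 3.32 and 8.46 CPM in irradiated, 1.91, 2.03 and 4.65 CPM in etoposide and 0 and 0.494 CPM in thapsigargin cells. The etoposide and thapsigargin ranges each lay below all cycling libraries. The 2 thapsigargin libraries held 1 BCL2L11 footprint together against 263 in cycling cells, which is 30.9-fold lower after scaling, with a 95% exact interval of 5.5 to 1230 for counting error only. The library at 0 has a floor of 3 counts, or 1.525 CPM. The fit called this decrease (adjusted p = 0.00302), with a size that depends on its handling of zeros. Etoposide footprints fell by 1.38 (SE 0.44, adjusted p = 0.0234), a call lost without cycling replicate 2 or etoposide replicate 1 or 2 (adjusted p = 0.0956 to 0.108).

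The senescent states also parted on BCL2L11. The senescent mean was lower than quiescence by a log2 change of -1.02 ± 0.25 in RNA (adjusted p = 0.00705) and -1.10 ± 0.33 in footprints (adjusted p = 0.0242). Irradiated exceeded etoposide cells by 1.04 ± 0.30 in RNA (adjusted p = 0.0253) and 1.51 ± 0.46 in footprints (adjusted p = 0.0302). The RNA difference was lost without irradiated replicate 1 or 3 or etoposide replicate 1 or 2 (adjusted p = 0.0765 to 0.117), and the footprint difference without the same 4 replicates of Ribo-seq (adjusted p = 0.0724 to 0.218). The footprint comparison with quiescence was lost without quiescent replicate 1 or 3 or etoposide replicate 1 or 2 (adjusted p = 0.0511 to 0.0664).

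BID and BBC3 complete the BH3-only genes. BID (chr22:17734138-17774665) encodes a protein that caspase-8 cleaves, joining death receptors to mitochondria. Its footprints were 66.5, 61.2 and 68.9 CPM in cycling, 80.3, 61.8 and 76.7 CPM in quiescent, 91.4, 96.2 and 98.4 CPM in irradiated, 97.9, 116 and 102 CPM in etoposide and 69.1 and 35.0 CPM in thapsigargin cells. Both senescent states lay above all cycling and quiescent libraries. BID footprints rose by 0.54 ± 0.17 after irradiation (adjusted p = 0.0215) and by 0.68 ± 0.17 after etoposide (adjusted p = 0.00627), and the senescent mean exceeded quiescence by 0.46 ± 0.15 (adjusted p = 0.034). The irradiation call was lost without cycling replicate 1 or 2 or irradiated replicate 2 or 3 (adjusted p = 0.0509 to 0.0752), and the comparison with quiescence on leaving out any library but quiescent replicate 1 or 3 (adjusted p = 0.0532 to 0.168) and with no filter (adjusted p = 0.0591).

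BID RNA was 82.1 and 71.3 CPM in cycling, 88.0, 83.2 and 93.9 CPM in quiescent, 83.5, 101 and 82.2 CPM in irradiated, 115, 109.5 and 97.6 CPM in etoposide and 60.8 and 48.5 CPM in thapsigargin cells. The quiescent, irradiated and etoposide libraries lay above and the thapsigargin libraries below the cycling ones. RNA rose by 0.49 ± 0.14 after etoposide (adjusted p = 0.0157) and fell by 0.49 under thapsigargin (SE 0.15, adjusted p = 0.0307). The etoposide call was lost without cycling replicate 2 (0.39, adjusted p = 0.15), and the thapsigargin call without either cycling library or thapsigargin replicate 2 (adjusted p = 0.0588 to 0.207) and with only those states in the fit (adjusted p = 0.159). Thapsigargin footprints were not called (-0.33 ± 0.21, adjusted p = 0.211), and their 2 libraries differed: without replicate 1 the change was -0.90 (adjusted p = 0.00307).

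BBC3 (chr19:47220824-47232860) encodes PUMA, a strong BH3-only activator and a known p53 target. Its RNA was 12.5 and 13.01 CPM in cycling, 26.3, 20.5 and 11.7 CPM in quiescent, 20.1, 23.5 and 20.1 CPM in irradiated, 12.8, 15.7 and 15.0 CPM in etoposide and 10.3 and 11.5 CPM in thapsigargin cells. All irradiated libraries exceeded both cycling ones, and quiescent libraries spanned the range of most states. RNA rose by 0.73 ± 0.25 after irradiation (adjusted p = 0.0376), a call lost on leaving out any 1 of the 5 libraries (adjusted p = 0.0629 to 0.176). The quiescent value, 0.61 ± 0.25 (adjusted p = 0.127), passed without quiescent replicate 3 (0.87, adjusted p = 0.0037). After etoposide it was 0.18 ± 0.25 (adjusted p = 0.604).

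BBC3 footprints dropped under thapsigargin. They were 11.1, 8.51 and 10.4 CPM in cycling, 14.8, 11.5 and 17.7 CPM in quiescent, 11.9, 9.21 and 18.3 CPM in irradiated, 9.36, 8.28 and 11.9 CPM in etoposide and 0 and 3.46 CPM in thapsigargin cells. Both thapsigargin libraries lay below all others. The 2 libraries held 7 footprints against 333 in cycling cells, 5.59-fold lower with a 95% exact interval of 2.68 to 14 for counting error, and the fitted change was -2.50 ± 0.63 (adjusted p = 0.00581). It was -1.52 without thapsigargin replicate 1, the library at 0, where the call was lost (adjusted p = 0.0518). Without replicate 2 the state is 1 library at 0, at least 6.55-fold lower than the cycling mean when set at its floor of 3 counts, or 1.525 CPM. With only cycling and thapsigargin libraries in the fit adjusted p was 0.0525.

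Translational efficiency, the ratio of footprints to RNA for a gene, was tested with an interaction term between assay and state over the 11639 genes kept in both assays. In the quiescent, irradiated and etoposide comparisons with cycling cells none of the 10 genes was called in edgeR, where 0%, 0.0172% and 0.0516% of all genes were called, nor in DESeq2, which called 6, 30 and 39 genes in all. At an unadjusted p under 0.05 edgeR gave 1 of the 10 in quiescence (MCL1, -0.27 ± 0.13) and 0 in the senescent states. Over all genes 378, 709 and 444 reached that unadjusted p. The larger footprint than RNA changes of BCL2L1 after irradiation, 0.41 ± 0.23 on the ratio, and of PMAIP1, 0.32 ± 0.29, were not resolved.

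Thapsigargin changed the ratio for 2 of the 10 genes, in a test that called 20.8% of all genes, with a median change of -0.09 over all genes. BCL2L2 rose by 2.45 ± 0.44 (adjusted p = 0.000515), from 0.04 to 0.206 footprint CPM per RNA CPM, under the limit on its counting given above. BBC3 fell by 2.21 (SE 0.72, adjusted p = 0.0331), from 0.783 to 0.158. The BBC3 call was lost without either cycling RNA-seq library, thapsigargin RNA-seq replicate 2 or thapsigargin Ribo-seq replicate 1 (adjusted p = 0.056 to 0.206), and with only the compared states in the fit (adjusted p = 0.0922). The value was -1.29 without that Ribo-seq replicate 1, and without replicate 2 no footprint remains, so no size is given.

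For the other genes the thapsigargin ratio was not called. PMAIP1 gave 0.54 ± 0.32 (adjusted p = 0.243), with a ratio of 1.94 in cycling and 2.68 in thapsigargin cells, and passed without thapsigargin RNA-seq replicate 1 (0.95, adjusted p = 0.0434). BCL2 gave -0.68 ± 0.44 (adjusted p = 0.277) and passed without thapsigargin Ribo-seq replicate 2 (-2.59, adjusted p = 0.000562), a fit in which the state has 1 footprint library with 3 counts. BCL2L11 gave -3.10 ± 1.52 (adjusted p = 0.151), on 1 footprint. MCL1 gave -0.10 ± 0.15 and BAX 0.07 ± 0.27.

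**Figure D4:**
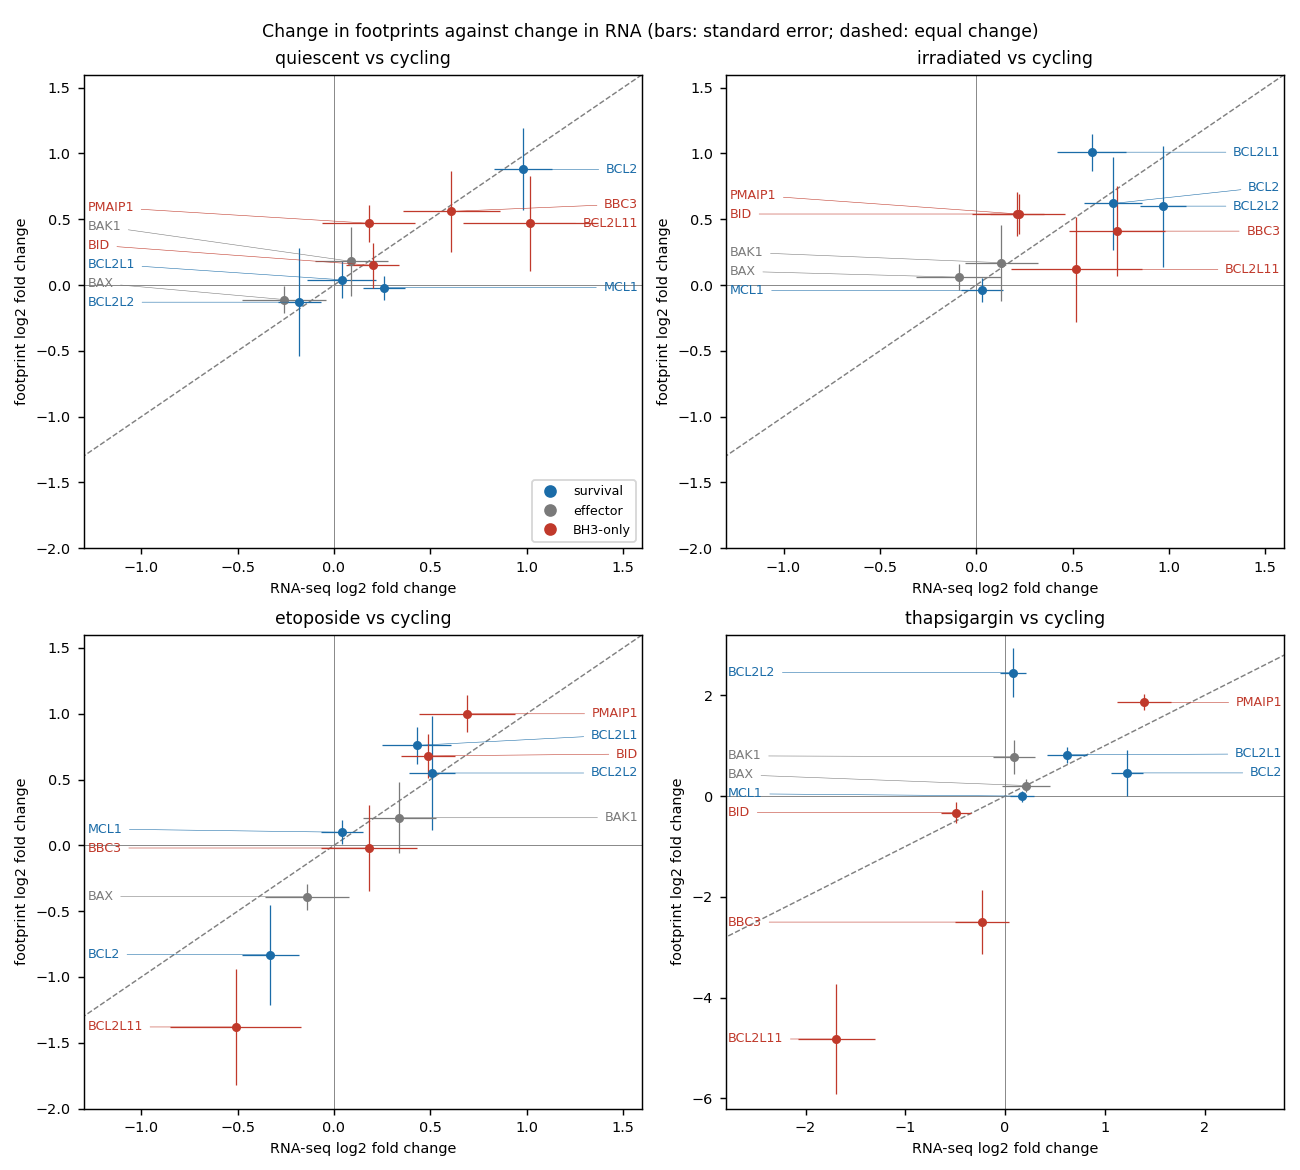
Footprint log2 fold change (vertical) against RNA-seq log2 fold change (horizontal) of the 10 genes in the 4 comparisons with cycling cells, with SE bars, a dashed line of equal change and colours by role. The thapsigargin panel has wider axes. Under thapsigargin BCL2L2 stands above the dashed line at 2.45 footprint log2 fold change and BBC3 below it at -2.50.

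Across the 13 RNA-seq libraries, which share states and depth, log2 CPM of PMAIP1 and BCL2L11 had a Pearson r of -0.82, the most negative of the family. The highest within the family were 0.70 between BCL2L1 and BCL2L2, 0.66 between BCL2L1 and BAX, and 0.65 between BBC3 and BCL2L11. Genes of most like pattern were PIP4K2A for BCL2 (r = 0.97), BRI3 for BCL2L1 (r = 0.959), ARHGEF4 for BCL2L2 (r = 0.957), CADPS2 for MCL1 (r = 0.881), MAP3K11 for BAX (r = 0.964) and UBE2M for BAK1 (r = 0.896). They were KLHL4 for BID (r = 0.955), NR1H3 for BBC3 (r = 0.959) and KITLG for PMAIP1 (r = 0.949). Each is the highest value for its gene among all genes tested and is given as a description.

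Other genes of the pathway gave context for the 10. Of 13 further BCL2 relatives, 9 were tested in RNA-seq. After irradiation 4 of the 9 rose and 1 fell, with a median of 0.54 against 0.03 over all genes and 35% of all genes called. BNIP3L, a mitophagy receptor, rose by 1.04 ± 0.13 (adjusted p = 3.4e-05) and BCL2A1, an inducible survival gene, by 2.50 ± 0.70 (adjusted p = 0.013). After etoposide 4 rose and 2 fell, with 34.6% of all genes called, led by BCL2A1 at 4.31 ± 0.64 (adjusted p = 0.000177) and HRK at 4.04 ± 1.18 (adjusted p = 0.0209). In quiescence, with 15.6% called, 2 rose, among them BMF, a BH3-only gene, at 1.33 ± 0.30 (adjusted p = 0.00953). Under thapsigargin 1 rose in RNA, HRK at 4.87 ± 1.14 (adjusted p = 0.00962), and 0 fell, with 24.6% called. In footprints under thapsigargin BMF rose by 2.14 ± 0.44 (adjusted p = 0.00161), where BBC3 and BCL2L11, also BH3-only, fell, and 1 other of the 8 tested relatives passed, lower, with 44.3% of all genes called.

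Downstream of the mitochondria, 15 genes of caspase activation were tested. In RNA-seq 3 rose and 4 fell under thapsigargin, with a median of -0.05 and 24.6% of all genes called. The caspase inhibitors BIRC3 and BIRC2 rose by 2.32 ± 0.36 and 2.00 ± 0.22 (adjusted p = 0.000542 and 3.4e-05). In the senescent states BIRC5, survivin, which dividing cells use in mitosis, fell by 3.16 after irradiation (SE 0.20, adjusted p = 1.3e-07) and fell by 4.09 after etoposide (SE 0.21, adjusted p = 1.4e-08). It was the 1 lower gene against 2 higher after irradiation, and 1 of 3 lower against 1 higher after etoposide, with 35% and 34.6% of all genes called.

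Of 10 death receptor genes, the 5 called in RNA after etoposide all rose, while 3 rose and 2 fell after irradiation, with medians of 0.50 and -0.02 and with 34.6% and 35% of all genes called. In footprints after etoposide 2 rose and 1 fell, with 33.7% called, the last being the receptor TNFRSF1A, which fell by 0.75 (SE 0.16, adjusted p = 0.00236). In RNA, FAS, the receptor whose signal BID relays, rose by 0.86 ± 0.17 after etoposide (adjusted p = 0.00144). Its RNA was lower in irradiated than in etoposide cells by a log2 difference of -0.83 ± 0.15 (adjusted p = 0.00141). Among 6 genes of MCL1 turnover, 3 rose in RNA after irradiation, BTRC, FBXW7 and USP9X, with 35% of all genes called. The largest change was that of BTRC, 0.61 ± 0.11 (adjusted p = 0.000644). After etoposide 2 rose, BTRC and USP9X, with 34.6% called. The list is not split by whether a gene raises or lowers MCL1, and the effect on MCL1 was not tested. Of 10 upstream regulators tested, the 6 called in RNA under thapsigargin all rose, with 24.6% of all genes called and 11.8% called higher. They were led by the stress factors DDIT3 (3.44 ± 0.16, adjusted p = 6.2e-08) and ATF3 (3.16 ± 0.16, adjusted p = 9.6e-08). The forkhead gene FOXO1 also rose, by 3.04 ± 0.59 (adjusted p = 0.00255), where BCL2L11 fell, and FOXO3 was not called. The part of these factors in BCL2L11 was not tested.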

How the data were processed

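RNA-seq (13 libraries) and Ribo-seq (14) of IMR90 cells in 5 states were analysed from the raw counts per gene that the authors deposited, as STAR writes them for each strand. Per the submitters' processing notes reads were aligned with STAR 2.7.10b to hg38, and DESeq2 1.36.0 was used. The annotation version is not given in the sources used here. The sense strand was taken, the reverse in RNA-seq and the forward in Ribo-seq. The deposited counts per gene were used unchanged over the 60534 shared IDs, which hold 99.6% to 99.97% of counts. Symbols were matched by gene ID from a separate list of gene names, for 60461 IDs. Biotypes came from RefSeq (GRCh38.p14), for 40222 IDs, of which 19148 were protein coding.

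Protein-coding genes passing filterByExpr (minimum count 10, minimum total 15) were tested in R 4.3.3 with edgeR 4.0.16 (quasi-likelihood, robust, TMM, two-sided, all states in a fit). Translational efficiency was the interaction of library type and state over all 27 libraries. Alternatives were DESeq2 1.42.0, its size factors, no filter, both strands, only the compared states, a replicate block and each library left out. The fit without thapsigargin libraries was added after seeing the data. The scripts were tested on simulated data. Intervals and floors cover counting error only, and reads carry no molecular identifiers in the sources used here. Replicate pairs differed by more than sampling noise, at 1.9 to 120 times the chi-square that sampling alone gives.

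Whether replicate numbers pair libraries was checked by the correlation of their deviations from group means. Same-numbered pairs ran from -0.19 to 0.48 in RNA-seq (8 of 23 over 0.1), from -0.19 to 0.27 in Ribo-seq (5 of 26) and from -0.02 to 0.57 between RNA-seq and Ribo-seq of a state (6 of 13, against 2 of 24 with different numbers). All 3 pairs were over 0.1 for cycling and quiescent Ribo-seq (0.16, 0.27 and 0.26), as were the RNA-seq and Ribo-seq pairs of etoposide (0.13, 0.38 and 0.2) and cycling cells (0.14 and 0.2). The numbers were taken to pair samples for quiescent footprints and etoposide efficiency, from these correlations alone, since no label says that a number marks a shared culture. The efficiency block joins RNA-seq and Ribo-seq of a state and number and leaves out libraries without a partner.

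The 10 genes and the other lists were chosen with earlier results of these data known. All 10 are named. From other lists up to 3 called genes of largest change per comparison could be named, and genes of like pattern are those of highest Pearson r of log2 CPM (prior count 2). Some results under these rules are not reported here.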

Additional observations from a re-analysis of the deposited data

Results flagged for a closer look

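The 2 ways of inducing senescence gave different changes from cycling cells in 7 tests, by edgeR's test of the difference between irradiated and etoposide cells. These were 3 of the 10 genes in RNA, with 22.6% of all genes called, and 4 in footprints, with 21.1% called. In RNA the log2 difference was 1.05 for BCL2, 0.46 for BCL2L2 and 1.04 for BCL2L11, each higher after irradiation. In footprints it was 1.45 for BCL2, 0.45 for BAX and 1.51 for BCL2L11, again higher after irradiation, and -0.46 for PMAIP1, which was higher after etoposide. BCL2 and BCL2L11 were thus called in both assays and in the same direction. Some of these calls were lost on leaving out 1 library. BCL2L11 was lost in RNA, and also in footprints, without any 1 of 4 libraries. The footprint call of BCL2 was lost without either of 2 libraries, and that of PMAIP1 without any 1 of 6. Endothelial markers also differed between these states, in RNA-seq at 31.2 to 34.2 CPM after irradiation and 52.8 to 83.1 CPM after etoposide. Their part in the differences was not tested.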

How the results depend on the processing

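Of the counts of the 10 genes called, 190 values under an alternative stayed within 1.5 times and 30 did not. For single genes, direction was compared only where the main fit or the alternative called the gene. Of all single-gene values 2081 kept a call and its direction or stayed uncalled in either direction, 88 lost a call, 29 gained one and 2 turned. Both turned with the strands counted together, for BCL2L1 under thapsigargin, to -0.59 in footprints and -1.35 in efficiency. DESeq2 called 2 genes in quiescence in RNA (BCL2, BCL2L11) and 2 in footprints (BCL2, PMAIP1). Over all genes it called 2604 of 13201 and 3312 of 11689 there. With only the compared states in the fit the calls were 6 for irradiated against etoposide RNA, with 4468 of all 13201 genes called. They were 3 for thapsigargin RNA, with 1546 of 13201 called, and 1 for thapsigargin efficiency, with 1056 of 11639 called. Without the thapsigargin libraries quiescent footprints gave 2, with 3540 of 11689 genes called. The cause of these changes was not tested.

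Leaving out 1 library gave, in RNA, 1 to 2 calls for quiescence, 2 to 3 for irradiation, 1 to 3 for etoposide, 2 to 5 for thapsigargin, 4 to 5 for senescence against quiescence and 2 to 3 for irradiated against etoposide. In footprints the ranges were 0 to 1, 2 to 3, 4 to 5, 5 to 7, 1 to 3 and 1 to 3 in the same order. For efficiency they were 1 to 3 under thapsigargin and 0 elsewhere, in edgeR.

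Over all genes, the fit with only the compared states moved calls from 2056 to 727 for quiescent RNA, 3244 to 1546 for thapsigargin RNA, 3944 to 6061 for etoposide footprints and 2467 to 4160 for irradiated against etoposide footprints. For efficiency it moved them from 2 to 562 (irradiated), 6 to 27 (etoposide) and 2424 to 1056 (thapsigargin). Leaving out 1 library gave, over 13201 genes in RNA, 3794 to 4352 calls for senescence against quiescence. For irradiated against etoposide RNA it gave 1833 to 2304. Over 11689 genes in footprints it gave 1541 to 2907 for quiescence, 3641 to 3991 for irradiation and 3024 to 3184 for etoposide. Senescence against quiescence gave 2185 to 3408 there, and irradiated against etoposide 1581 to 2046. No such number is given where a group kept 1 library. DESeq2 called 6, 30 and 39 genes for quiescent, irradiated and etoposide efficiency against 0, 2 and 6 in edgeR, and counting both strands gave 6 for irradiated and 10 for etoposide efficiency.

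Outside the 2 comparisons in which replicate numbers paired the samples, they shared only a number. A fit with the replicate number as a block kept all 16 counts within 1.5 times. In the paired comparisons, quiescent footprints and etoposide efficiency, it changed no call of the 10 genes, and PMAIP1 quiescent footprints stayed at 0.47. Elsewhere it gained the calls of BAK1 thapsigargin footprints (0.92) and BCL2L11 thapsigargin efficiency (-3.17), and lost BBC3 thapsigargin efficiency (-2.21) and PMAIP1 irradiated against etoposide footprints (-0.45). Depth limits BCL2, BCL2L2, BAK1, BBC3 and BCL2L11 in thapsigargin footprints, which rest on 22, 53, 47, 7 and 1 counts.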
